A study of Mus musculus with 20 samples.

Results

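Synaptic vesicle release genes were followed across mouse tissues through every probe set that the platform annotation assigns to Snap25, Syt1, Cplx1, Vamp2, Stx1a, Syp and Vsnl1. All 7 genes were measured, of 8251 genes in all that the array names by a probe set of their own, by 8 of its 12422 probe sets that are not platform controls. Vamp2 had 2 probe sets, a dimmer one (98925_at) and a brighter one (98926_at), and each other gene had 1. No member probe set was shared with another symbol. Total RNA was hybridised to short-oligonucleotide arrays, and 20 arrays were used. Of these, 12 form a tissue panel of brain, heart, lung and muscle from C57BL-6J mice aged 20 weeks, with 1 array per tissue for control mice, mice under sleep fragmentation and mice under hypoxia. The control label states neither hypoxia nor fragmentation, and the panel labels give no oxygen level or duration. The other 8 arrays hold subcutaneous adipose tissue of mice aged 12 weeks, in 4 groups of 2 arrays that combine the words Con or Glucose with hypoxia or non-hypoxia. The adipose labels name 2 strains, C57BL-6J and C57BL-6J-Lep, the second marked by an obesity gene, without assigning either to an array or saying what Con and Glucose mean. Adipose hypoxia was intermittent, between 20.9% and 5% oxygen, for 16 hours a day over 5 days. The series title places the study in sleep apnea and glucose metabolism. The labels do not say whether arrays came from separate animals or from pools, so p-values here measure the spread between arrays, which may be technical. No tissue and condition of the panel had a second array, so the 3 arrays of a tissue, under different conditions, served as its replicates.

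Neurotransmitter is stored in synaptic vesicles and released when a vesicle fuses with the presynaptic membrane. Fusion is driven by the neuronal SNARE complex, which is assembled from synaptobrevin 2 on the vesicle (Vamp2) and from syntaxin 1A (Stx1a) and SNAP-25 (Snap25) on the target membrane. Synaptotagmin 1 (Syt1) is the calcium sensor that triggers fast release, and complexin 1 (Cplx1) binds the assembled SNARE complex and both restrains and promotes fusion. Synaptophysin (Syp) is an abundant vesicle membrane protein that binds synaptobrevin. Visinin-like 1 (Vsnl1) is a neuronal calcium sensor of the cytosol and is not part of the fusion machinery. In brain these genes are expressed chiefly by neurons. Related SNARE genes serve membrane traffic in all tissues.

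Promoter windows of 250 bases before to 50 bases after the start site were taken from RefSeq for GRCm38.p6, and 5 of the 7 genes matched the table. The first window of each of these 5 genes is shown, since most members were higher together in brain, and capitals mark the GC box, searched as GGGCGG and its reverse complement CCGCCC. The window of Stx1a lies at chr5:135023232-135023531 on the plus strand and holds 3 GC boxes. The first of the 2 windows of Syt1 lies at chr10:109010926-109011225 on the minus strand and holds 1. The window of Cplx1 lies at chr5:108549978-108550277 on the minus strand and holds 2 GC boxes, 1 in each orientation. The window of Syp lies at chrX:7638330-7638629 on the plus strand and holds 2. The first of the 2 windows of Vsnl1 lies at chr12:11436529-11436828 on the minus strand and holds 1.
Stx1a: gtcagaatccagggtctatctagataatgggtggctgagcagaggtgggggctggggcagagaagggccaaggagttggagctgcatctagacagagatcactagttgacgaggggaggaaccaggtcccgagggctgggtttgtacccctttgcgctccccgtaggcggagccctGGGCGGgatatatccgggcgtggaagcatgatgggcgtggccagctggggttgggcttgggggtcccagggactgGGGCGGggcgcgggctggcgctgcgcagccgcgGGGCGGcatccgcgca
Syt1: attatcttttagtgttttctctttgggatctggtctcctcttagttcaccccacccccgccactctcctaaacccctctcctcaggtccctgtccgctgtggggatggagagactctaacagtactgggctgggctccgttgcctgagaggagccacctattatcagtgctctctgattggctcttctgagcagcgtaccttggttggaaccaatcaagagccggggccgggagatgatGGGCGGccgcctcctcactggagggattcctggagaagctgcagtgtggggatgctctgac
Cplx1: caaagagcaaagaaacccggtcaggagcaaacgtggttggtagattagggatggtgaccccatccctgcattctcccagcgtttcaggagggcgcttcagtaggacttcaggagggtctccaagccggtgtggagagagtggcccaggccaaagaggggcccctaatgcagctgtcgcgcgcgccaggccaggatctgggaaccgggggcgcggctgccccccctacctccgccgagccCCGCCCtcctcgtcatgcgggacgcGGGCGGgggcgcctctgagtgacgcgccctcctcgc
Syp: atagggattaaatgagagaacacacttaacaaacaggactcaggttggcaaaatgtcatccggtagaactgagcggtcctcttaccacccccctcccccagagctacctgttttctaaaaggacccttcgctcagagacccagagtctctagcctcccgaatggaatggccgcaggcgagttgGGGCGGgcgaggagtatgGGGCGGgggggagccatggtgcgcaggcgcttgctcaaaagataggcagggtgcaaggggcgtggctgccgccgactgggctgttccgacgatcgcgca
Vsnl1: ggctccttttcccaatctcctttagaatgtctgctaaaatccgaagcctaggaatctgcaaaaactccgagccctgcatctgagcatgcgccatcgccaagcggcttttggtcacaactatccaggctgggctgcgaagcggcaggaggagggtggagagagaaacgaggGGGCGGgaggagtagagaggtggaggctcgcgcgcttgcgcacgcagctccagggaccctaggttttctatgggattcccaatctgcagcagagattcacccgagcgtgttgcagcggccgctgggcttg
Of the 7 member windows, which include 2 each for Syt1 and Vsnl1, 5 held the motif. Of all 32851 windows of this length in the table, 11714 held it, or 35.7%. A match is a run of letters and not a shown binding site.

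The brain hypoxia array stood apart from the rest before any comparison. Its median intensity was 1475, against 349 to 411 on the other 11 panel arrays, and its trimmed mean was 3.34 times the median of theirs. A deposited intensity on that array therefore cannot be set directly against the other arrays. Brain intensities of the members are given below with their percentile among the probe sets of the same array. Those of most other genes are given without it, and their brain hypoxia values stand on the brighter scale of that array. Panel values were taken to log2 after an offset of 97.7 and quantile normalized, which gives every array the same distribution, and each log2 level or difference below is on that scale unless said otherwise. Markers were checked for each tissue label. In the fit, 12 of 12 neuron markers, 7 of 7 astrocyte markers and 6 of 6 oligodendrocyte markers tested were higher in brain. Of all 7453 probe sets tested, 23.6% were. Lower in brain than in the tissue they mark were 7 of 8 heart markers, 6 of 8 skeletal muscle markers and 3 of 5 lung markers. Of all tested, 1741, 1988 and 1813 were lower in brain than in heart, muscle and lung. The array held 7 oligodendrocyte and 6 lung markers. Only probe sets whose highest tissue mean lay above percentile 40 were tested. How many markers passed through the tissue they mark alone was not counted, and for such markers the direction was built in. All 6 adipocyte markers on the array passed the adipose filter. Some markers went against the labels. The summed intensity of 6 lung markers was 11155 on the brain control array and 1476 on the brain fragmentation array, led by Scgb1a1, a secretory protein gene of the airway, at 9345 and 468. Skeletal muscle markers had a median log2 level of 9.77, 8.24 and 9.26 on the brain control, fragmentation and hypoxia arrays. The muscle actin gene Acta1, picked after its values were seen, stood at 12.89, 8.84 and 11.76 on them. Heart muscle markers had a median log2 level of 10.76 to 11.26 on the lung arrays, and 6 of 8 were called higher in lung than in muscle. In whole tissue, fewer cells of a type and less RNA per cell cannot be told apart.

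Among the SNARE genes in brain, Snap25 was the brightest by its rank on the arrays. It had intensities of 10985 on the control array, 13641 on the fragmentation array and 27568 on the hypoxia array, at percentiles 99.9, 99.9 and 99.8. Its highest reading on the 9 heart, lung and muscle arrays was 217, on the muscle hypoxia array, and the lowest was 13. The groups did not overlap, and the mean log2 level in brain, 13.81 ± 0.09 (SD over the 3 arrays of a tissue, here and below), stood at 6.87 ± 0.08 in heart, 6.94 ± 0.05 in lung and 7.50 ± 0.80 in muscle.

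Stx1a, the other target-membrane SNARE gene, read 875, 1992 and 6104 on the brain control, fragmentation and hypoxia arrays, at percentiles 70.0, 87.8 and 86.2. On the other 9 panel arrays it lay between 68.5 and 194. Brain was above every other array here too, with a mean log2 level of 10.75 ± 0.62, and its control array was the lowest of the 3.

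The vesicle SNARE gene Vamp2 gave different pictures on its 2 probe sets. The dimmer one read 2189, 1850.3 and 5677 on the brain control, fragmentation and hypoxia arrays, at percentiles 88.7, 86.5 and 84.8. It read 243 to 387 in lung, 85.5 to 211 in heart and 102 to 119 in muscle. The brighter one read 5422, 7552 and 14179 on these brain arrays, at percentiles 97.5, 98.7 and 96.7. It read 3529 to 5068 in lung, 1013 to 2099 in heart and 1165 to 1662 in muscle. Both placed brain first and lung second. The brighter set was thus well lit in every tissue, and its brain and lung arrays overlapped after normalization, with mean log2 levels of 12.74 ± 0.32 and 12.14 ± 0.27. The transcripts that each set detects were not analysed here.

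The calcium sensor Syt1 had the widest spread between brain arrays among the members that stayed high on all 3. It read 2505 on the control array, 5772 on the fragmentation array and 24735 on the hypoxia array, at percentiles 90.4, 97.7 and 99.6. The other panel arrays ranged from 8.8 in lung to 251 in muscle. Its mean log2 level in brain was 12.58 ± 1.08.

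Cplx1 was the member whose brain arrays disagreed. It read 3113 on the control array and 3695 on the fragmentation array, at percentiles 93.1 and 94.8, and 258 on the hypoxia array, at percentile 16.6. The hypoxia array was thus the lowest for this gene within brain although it was the brightest array of the panel. Heart read 181 to 258, lung 214 to 264 and muscle 408 to 560.3. On the log2 scale the brain arrays stood at 11.77, 12.05 and 7.46, and the hypoxia value lay below the tissue means of heart (8.33 ± 0.25), lung (8.52 ± 0.08) and muscle (9.38 ± 0.23).

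The vesicle protein gene Syp was steady in brain, with 2119, 2224 and 8166 on the control, fragmentation and hypoxia arrays, at percentiles 88.3, 89.3 and 91.1. The other panel arrays ranged from 36.6 to 199.6. Vsnl1 read 8259, 10294 and 22189.7 in brain, at percentiles 99.4, 99.5 and 99.3. Outside brain it was uneven: 322 to 418 in lung, 11.1 to 18.5 in heart, and in muscle 14.6, 20.5 and 318 on the control, fragmentation and hypoxia arrays.

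**Figure D1:**
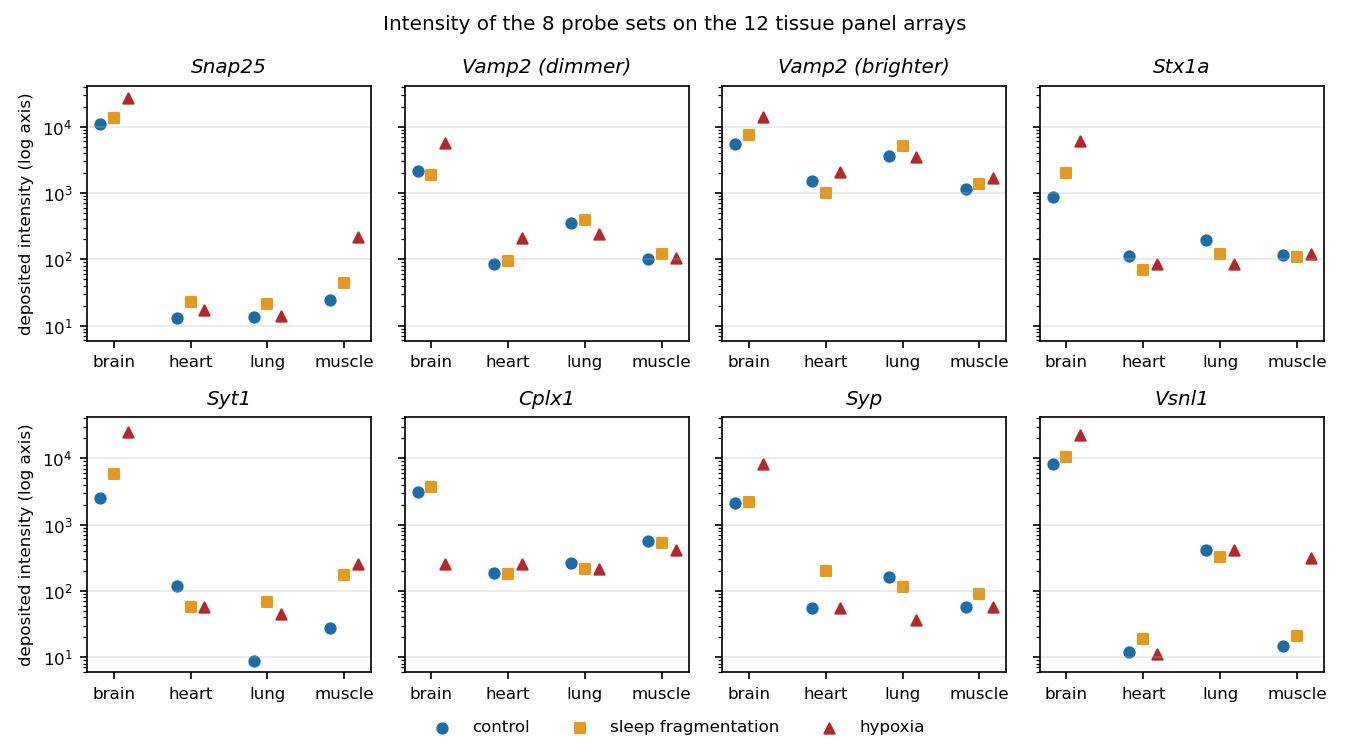
Deposited intensity of each member probe set (log axis, arbitrary units) on the 12 panel arrays, by tissue, with 1 point per array and a symbol for each condition. The brain hypoxia array is on a brighter deposited scale than the rest. Cplx1 is the one panel in which its deposited value (258) falls to the range of the other tissues. After normalization that level of Cplx1, 7.46, lies below all 9 arrays of the other tissues. The normalized level of the brighter Vamp2 set on the brain hypoxia array, 12.44, lies just under its highest in lung, 12.45.

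Brain was compared with the mean of heart, lung and muscle in a limma fit of tissue and condition over the 12 arrays. On the scale of intensity plus offset, Snap25 was 104-fold higher in brain (log2 difference 6.71 ± 0.24 SE, adjusted p = 1.75e-08). Vsnl1 was 49.2-fold higher (5.62 ± 0.31, adjusted p = 2.62e-07) and Syt1 33.0-fold (5.04 ± 0.32, adjusted p = 6.22e-07). Next came Syp at 13.4-fold (3.75 ± 0.22, adjusted p = 3.54e-07), Stx1a at 7.69-fold (2.94 ± 0.24, adjusted p = 3.69e-06) and the dimmer Vamp2 set at 7.56-fold (2.92 ± 0.20, adjusted p = 1.09e-06). The brighter Vamp2 set was 2.89-fold higher (1.53 ± 0.22, adjusted p = 0.000219). Many readings outside brain lay under the offset of 97.7, those of Snap25 on 8 of the 9 arrays, so these folds are of intensity plus offset, understate the difference and give no exact ratio. The log2 difference of Snap25 was 7.93 on the log2 scale with the offset divided by 4 and 5.07 with it multiplied by 4.

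Cplx1 did not pass the threshold of adjusted p under 0.05 in that fit (1.68 ± 0.68, adjusted p = 0.0619). It passed without quantile normalization (2.07, adjusted p = 1.5e-06) and with the offset multiplied by 4 (1.44, adjusted p = 0.0215). Without that normalization the brain hypoxia array kept its brighter scale, and the median difference of all tested probe sets was 0.55 (-0.08 with it). Without the brain hypoxia array the difference of Cplx1 was 3.17 (adjusted p = 2.56e-06), and without the heart hypoxia array 1.91 (adjusted p = 0.0372). The other 7 probe sets passed with or without that array, at 1.79 to 6.87 without it.

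All 8 member probe sets passed the filter on dim probe sets, 6 of them through brain alone, as did 461 of all 7453 tested (6.19%), so a higher level in brain was built into the choice for those 6. The exceptions are Cplx1 and the brighter Vamp2 set. Of all 7453 probe sets tested, 49.5% were called in either direction and 23.6% as higher in brain, against 7 of the 8 members. The median difference of the members was 3.34 and that of all tested probe sets was -0.08. Without quantile normalization the median of all tested moved to 0.55 and 82.9% of calls were higher in brain, against 47.6% in the normalized fit. All 3 brain arrays lay above all 9 other panel arrays for 6 of the 8 members and for 13.7% of the tested probe sets. Those 6 are the ones that passed the filter through brain alone, so nothing is read from this count. The brain hypoxia array of Cplx1, and that of the brighter Vamp2 set against lung, overlapped the rest.

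Tissue by tissue, Snap25 was higher in brain than in heart by 6.94, than in lung by 6.87 and than in muscle by 6.31 on the log2 scale. Syt1 stood 5.10, 5.36 and 4.68 above heart, lung and muscle, Syp 3.71, 3.58 and 3.95, and Stx1a 3.15, 2.76 and 2.92. These 4 genes all passed the threshold against each tissue. Vsnl1 was 6.60 above heart, 5.90 above muscle and 4.37 above lung. Against muscle its difference was 6.55 without the muscle hypoxia array. The dimmer Vamp2 set was 3.23 and 3.32 above heart and muscle and 2.20 above lung. The brighter set was 1.98 above heart and 2.01 above muscle, and its difference from lung of 0.60 was not called (adjusted p = 0.0892). Without the brain hypoxia array that difference was 0.85 (adjusted p = 0.0399), and without the heart fragmentation array 0.60 (adjusted p = 0.0375). Cplx1 was called against none of the 3 tissues (2.09, 1.90 and 1.05 against heart, lung and muscle, with adjusted p of 0.062, 0.0789 and 0.31). It was called against each without the brain hypoxia array, at 3.58, 3.39 and 2.54. Without quantile normalization, where that array kept its brighter scale, Cplx1 was called at 2.43, 2.31 and 1.47. With the offset multiplied by 4 it was called against heart (1.69) and lung (1.59). Without the heart hypoxia array it was called against heart, at 2.78 (adjusted p = 0.034). Of all tested probe sets, 22.4% were higher in brain than in heart, 27% than in lung and 25% than in muscle.

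**Figure D2:**
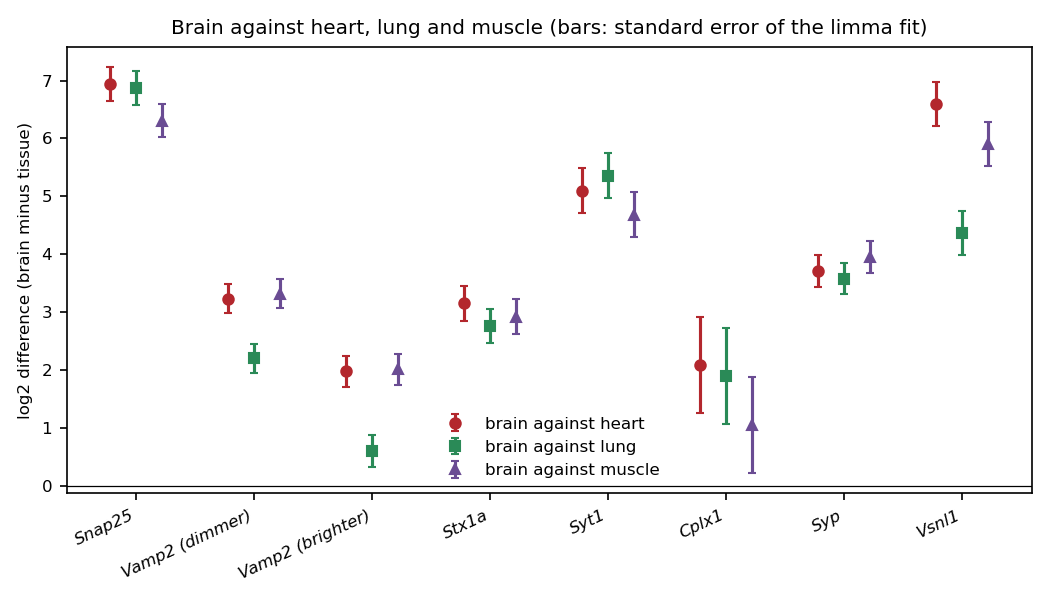
log2 difference of brain minus heart, lung or muscle for each member probe set; points are limma estimates from 12 arrays and bars are their standard errors. The Vsnl1 and Vamp2 differences are smallest against lung (4.37 for Vsnl1), and Cplx1 has the widest bars.

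Outside brain the only members called were Vsnl1 and both Vamp2 sets, as higher in lung. The lung arrays also carried heart muscle markers at the levels given above, whose part in the result was not tested. Vsnl1 was higher in lung than in heart (2.23 ± 0.38, adjusted p = 0.000858) and than in muscle (1.53 ± 0.38, adjusted p = 0.00593). Without the muscle hypoxia array the second of these was 2.20. The brighter Vamp2 set was higher in lung than in heart (1.38 ± 0.27, adjusted p = 0.0019) and than in muscle (1.41, adjusted p = 0.00128). The dimmer set was higher by 1.03 (adjusted p = 0.00583) and 1.11 (adjusted p = 0.00298), and neither of its differences was called without quantile normalization (adjusted p = 0.16 and 0.0872). These probe sets made 3 of 8 called as higher in lung than in heart, where 25.3% of all tested were, and the same 3 in lung against muscle, where 29.8% were. The other 5 members were not called in either comparison. With so few probe sets, these counts are not set apart from the shares over all tested. Of 21 other release machinery genes tested, described below, 1 was called higher and 6 lower in lung than in heart. In lung against muscle 0 were higher and 10 lower. Of all 7453 tested, 2069 and 2376 were lower in these comparisons. Between muscle and heart no member was called in either direction. Of all 7453 tested, 825 (11.1%) were higher and 1035 lower in muscle. Cplx1 was 1.05 higher in muscle than in heart (± 0.83, adjusted p = 0.39), with an error to which the brain arrays contribute through the common fit. Without the brain hypoxia array this was 1.03 (adjusted p = 0.0049), and its difference of lung minus muscle was -0.85 (adjusted p = 0.00464, against 0.391 with the array).

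In the muscle hypoxia array 2 members read high for their tissue. Snap25 had intensities of 24.5, 43.9 and 217 and Vsnl1 of 14.6, 20.5 and 318 on the control, fragmentation and hypoxia arrays of muscle. On the log2 scale Snap25 was 1.43 above control and 1.32 above fragmentation, and Vsnl1 was 1.99 and 2.0 above them. Syt1 was 1.55 above control but 0.46 above fragmentation. Thus 2 of 8 members were at least 2-fold above both other muscle arrays, as were 1.32% of all probe sets. Of 12 neuron markers, 7 lay above both other muscle arrays and 0 were 2-fold above both. The share of all probe sets that lay above both by any amount was not counted, so nothing is read from the 7. Ina, a neuronal intermediate filament gene, read 38.6, 359 and 562 on the control, fragmentation and hypoxia arrays of muscle, 2.36 above control on the log2 scale, and Camk2a read 447, 148 and 202. Both were picked out after their values were seen. The summed intensity of the 12 neuron markers was 5646, 6179 and 6675 on the control, fragmentation and hypoxia arrays of muscle. It was 47184 on the brain control array, and none of these markers was at 0. Their part in the result was not tested. With 1 array on each side these differences carry no test.

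Sleep fragmentation was compared with control over the 4 tissues. No member was called, and 0 of 7453 probe sets were (limma, 0%; 333 had an unadjusted p under 0.05). Member differences ran from -0.02 to 0.65 on the log2 scale, with Syt1 at the top (0.65 ± 0.34, adjusted p = 0.967). Within brain, the fragmentation array stood 2.49-fold above control for Syt1 and 2.20-fold for Stx1a. The remaining members differed by 1.32-fold or less, with Cplx1 at 0.28 and Snap25 at 0.01 on the log2 scale. Of all probe sets, 1.89% were at least 2-fold higher and 1.94% at least 2-fold lower between these single arrays.

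Hypoxia against control over the 4 tissues likewise gave 0 calls of 7453 (limma, 0%; 373 with an unadjusted p under 0.05). Member differences ran from -1.11 for Cplx1 (± 0.72, adjusted p = 0.917) to 0.96 for Syt1 (± 0.34, unadjusted p = 0.018, adjusted p = 0.904). The adjusted p of Syt1 ranged from 0.623 to 0.979 over the alternatives. The value of Cplx1 rested on the brain hypoxia array, and it was 0.00 without it.

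Between the single brain arrays, hypoxia minus control, Cplx1 was 19.8-fold lower (-4.31 on the log2 scale). Syt1 was 4.41-fold higher (2.14) and Stx1a 2.01-fold higher (1.0). With median scaling in place of quantile normalization Cplx1 was 19.4-fold lower, Syt1 2.58-fold higher and Stx1a 1.78-fold higher. The others stayed within a narrow range in the normalized values: Syp 0.29, Vsnl1 -0.06, Snap25 -0.16, and Vamp2 -0.24 on the brighter and -0.32 on the dimmer set. On the deposited scale, where the median of all probe sets was 1.56 higher on the hypoxia array, Cplx1 was still 3.17 lower, and every other member was higher by 1.32 to 3.25. Thus 1 of 8 members was at least 2-fold lower and 2 of 8 at least 2-fold higher, against 3.35% and 2.13% of all probe sets. Among the brightest 5% on the brain control array, 9% were at least 2-fold lower and 0.804% higher. Against the brain fragmentation array Cplx1 was 24-fold lower, and Syt1 was 0.83 higher on the log2 scale. The comparisons of fragmentation and hypoxia with control share the 1 brain control array, on which Stx1a and Syt1 read lowest. That array also carried the high readings of Scgb1a1 and Acta1, and their part in these differences was not tested.

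**Figure D3:**
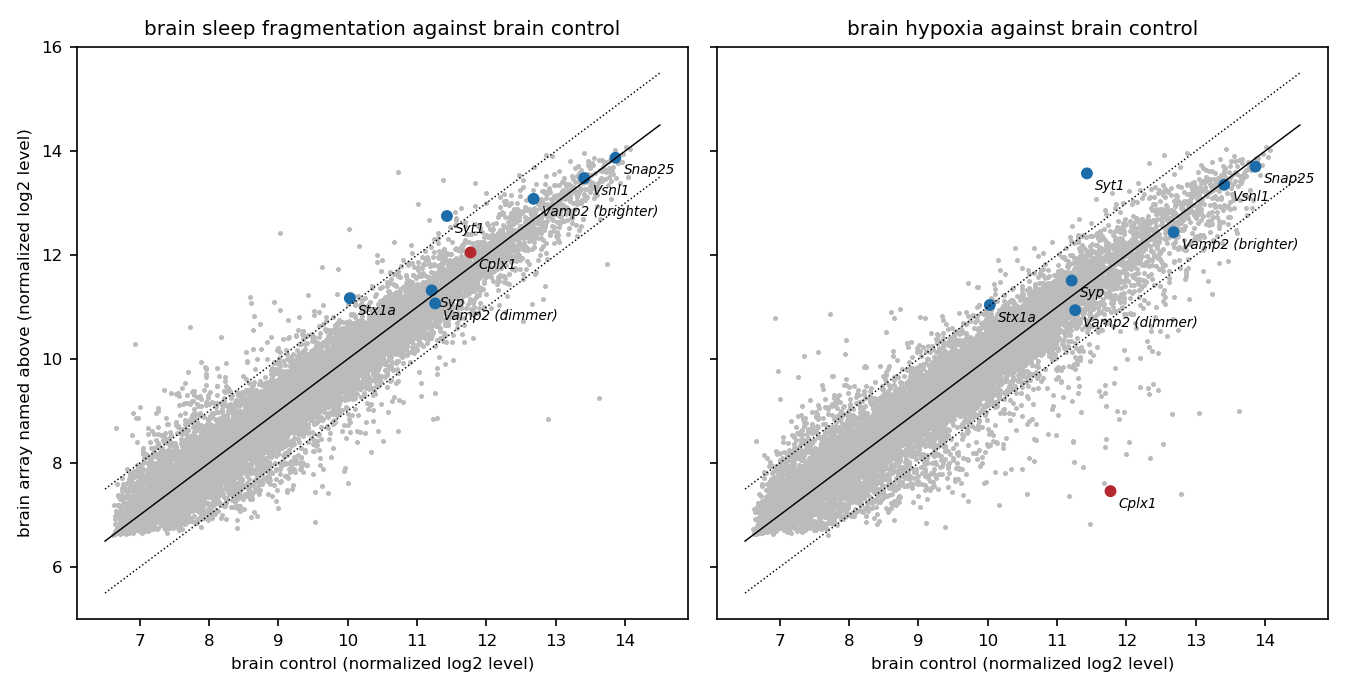
Normalized log2 level on the brain sleep fragmentation array (left) and the brain hypoxia array (right) against the brain control array, for all probe sets (grey) and the 8 member probe sets (Cplx1 red, others blue); the solid line is equality and the dotted lines are 2-fold. On the right Cplx1 lies far below the line, at 7.46 against 11.77, and Syt1 lies above it in both.

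The low reading of Cplx1, already known when the gene was chosen, was then measured against the additive fit, in which the brain hypoxia array is given a term of its own beside tissue and condition. For Cplx1 the array departed from the fitted level by -4.46 ± 0.34 on the log2 scale (adjusted p = 0.00117). This p-value describes a single array picked out beforehand and is no independent support. Of 7453 probe sets 22 were called, all of them lower (0.295%), and 670 had an unadjusted p under 0.05. Cplx1 was the second by p and the sixth by size, in a range of -1.68 to -5.45. No other member was called: Syt1 was 1.13 above the fit (adjusted p = 0.639), Syp 0.70 above (adjusted p = 0.681) and Vsnl1 0.82 below (-0.82, adjusted p = 0.785). On the deposited scale, without quantile normalization, the term reached 6582 calls and took in 5 members. The median departure of all probe sets was 1.69 there, against 0.03 in the normalized fit, and Cplx1 still lay below the fit, at -3.26 (adjusted p = 0.000559). Leaving out 1 other array at a time gave 5 to 21 calls, each time with Cplx1 among them, at -4.24 to -4.66 (adjusted p 0.00205 to 0.0112).

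Probe sets called low in this way can fall far only from a high level, so their brightness was largely given in advance. The share of all tested probe sets at such levels was not counted. Of the 22, 17 stood at or above percentile 80 on the brain control array. They include Epn1, an endocytic adaptor (-4.55 ± 0.33, adjusted p = 0.00117), with intensities of 4411, 5609.6 and 591 on the brain control, fragmentation and hypoxia arrays. App, the amyloid precursor protein gene, read 4934, 10104 and 790.5 (-4.64 ± 0.42, adjusted p = 0.0025). Atp6v0e2, a subunit gene of the vacuolar proton pump that acidifies vesicles, read 2587, 3241 and 49.2 and had the departure of -5.45 (adjusted p = 0.0182). These 3 genes were named after their values were seen.

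Bright probe sets that read low were also counted on each panel array, a description added after the data were seen that restates the low reading of Cplx1 and does not support it. On each array, probe sets in the brightest 10% on both other arrays of the tissue were taken, 1023 to 1111 of them, and those below the median of the array were counted. The brain hypoxia array had 12 of 1066 (1.13%), and the other 11 arrays had 0 to 2. Cplx1 is 1 of the 12, and no other member is among them on any array. Its percentile of 16.6 compares with 2.0 for Atp6v0e2, the lowest of the named ones, and 37.3 for Sprr2i, the highest of the named ones. Of the other 11 probe sets, Epn1, App, Sprr2i and Atp6v0e2 and a set shared by tubulin genes were also called in the additive fit. With 1 brain array per condition, the array and the condition cannot be told apart.

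**Figure D4:**
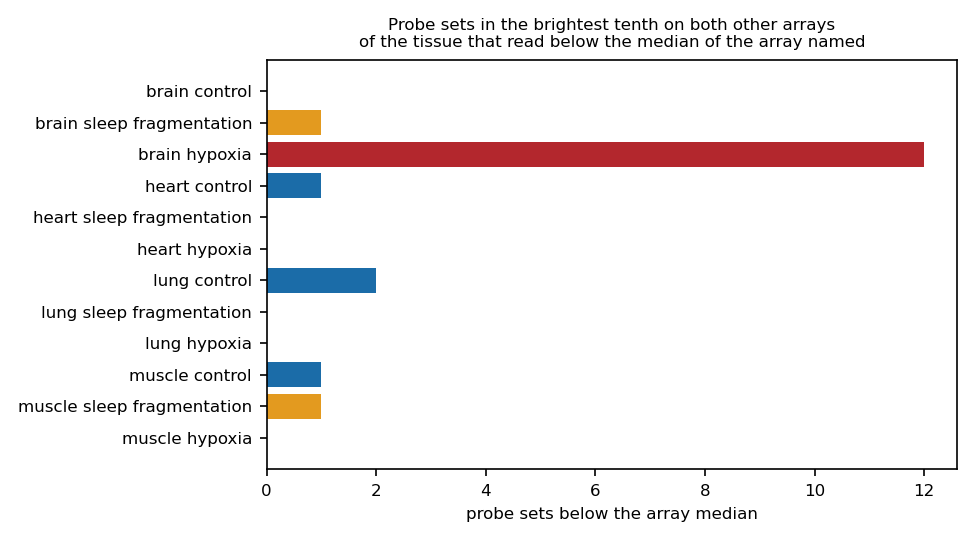
Number of probe sets on each panel array that read below the median of the array while lying in the brightest 10% on both other arrays of the tissue. The brain hypoxia array holds 12 and the others 0 to 2.

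Other genes of the release machinery were also higher in brain. Of 40 listed, 24 were on the array, 21 were tested, and 16 were called higher and 0 lower, with a median difference of 2.58. Over all tested probe sets 23.6% were higher and 25.9% lower, with a median of -0.08. How many of the 21 passed the filter through brain alone was not counted, and for such genes a higher level was built in. Slc32a1, which loads inhibitory transmitters into vesicles, was 5.46 ± 0.14 higher (adjusted p = 3.96e-09). Cadps, a priming factor, was 4.72 higher, the clathrin adaptor Snap91 4.08, and Vamp1, the other synaptobrevin, 4.03. None of the 21 was called for fragmentation, hypoxia or the brain hypoxia array. Slc32a1 read 5054, 5048 and 13314 on the brain control, fragmentation and hypoxia arrays and stayed at or below 42.3 elsewhere in the panel.

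Of 33 listed SNARE and vesicle genes of general membrane traffic, 23 were tested, with 5 higher and 7 lower in brain and a median difference of 0.07. Over all tested probe sets 23.6% were higher and 25.9% lower, so these counts lie near the background. Scamp1 (1.55) and the syntaxins Stx6 (1.28) and Stx7 (0.83) were higher, as was Vamp4 (0.74). Vamp5 (-2.95), the synaptophysin relative Sypl (-1.44), Snap23 (-1.41), which is the SNAP-25 relative outside neurons, and Vamp8 (-1.40) were lower. Among neuronal calcium sensors, the family of Vsnl1 and other calcium-binding proteins of neurons, 14 were listed, 9 were on the array and 6 were tested. Of these 6, 4 were higher and 0 lower: Calb1 by 4.90, Calb2 by 4.29, Hpca by 3.07 and Hpcal1 by 1.0. How many of them passed the filter through brain alone was not counted, and for such genes a higher level was built in. None in either list was called for fragmentation, hypoxia or the brain hypoxia array.

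The genes most like the members were ranked by Pearson correlation with the mean member profile over the 12 panel arrays, as a description. The closest were Rtn1 (r = 0.991), 6330403K07Rik (0.989), Ctnna2 (0.988), Ncdn (0.987) and Rnf227 (0.987). These points share the tissue contrast, and brain against the rest sets most of each value. Rtn1 read 9506, 12834 and 29035 in brain and 262 to 650.4 elsewhere. The members themselves had r of 0.988 for Snap25, 0.974 for Stx1a, 0.970 for Vsnl1, 0.964 for Syp, 0.952 for Syt1, 0.795 for the brighter Vamp2 set and 0.590 for Cplx1. Each member is itself part of the mean profile, so these r cannot be set directly against those of the other genes.

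In adipose tissue most members had no signal above the floor, which is the offset of 97.7. Snap25, Stx1a, Cplx1 and Vsnl1 read at or below 0 on 8 of 8 arrays, where 17.5% to 21.2% of all values did. Syt1 ranged from -25.7 to 56.6 and was under the floor on all 8. Syp ranged from 34.5 to 126, with 4 arrays under the floor, and the dimmer Vamp2 set from -10.9 to 118, with 7. No fold is given for these. None of the panel values was at or below 0, and levels were not compared between adipose tissue and the panel.

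The brighter Vamp2 set was the only member that passed the adipose filter, 1 of 8. It read 1388 and 1979 in the Con hypoxia group, 1319.6 and 1956 in the Con non-hypoxia group, 2349.5 and 1665 in the Glucose hypoxia group and 1993 and 1271 in the Glucose non-hypoxia group. The 4 groups overlapped. Glucose minus Con was 0.12 ± 0.29 on the log2 scale (adjusted p = 0.847), where 7.58% of 7453 probe sets were called. Hypoxia minus non-hypoxia was 0.18 ± 0.29 (adjusted p = 1.0), where 0 of 7453 (0%) were called by limma and 110 had an unadjusted p under 0.05. Of the other release machinery 0 of 9 tested genes were called for Glucose against Con, and of the general SNARE and vesicle genes 3 of 23, all higher.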

How the data were processed

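Arrays were grouped by the words in their titles. The authors deposited 1 table of linear intensity, with a value for each probe set on each array. Summary method, background correction and scaling are not given in the sources used here. Of 12488 probe sets, 66 controls were left out. Of the 12422 others, 10833 had 1 gene symbol in the platform annotation, 396 several and 1193 none.

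Panel intensities received an offset of 97.7 (percentile 20 of positive values) and were then taken to log2 and quantile normalized. The 7453 probe sets whose highest tissue mean lay above percentile 40 were tested with limma 3.58.1 (R 4.3.3), on tissue plus condition (6 residual degrees of freedom), with Benjamini-Hochberg adjustment over all tested and a threshold of 0.05. A second fit added a term for the brain hypoxia array. Adipose values were raised to the offset where lower (floor log2 6.61), kept at the deposited scaling and fitted as 4 group means (4 residual degrees of freedom).

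All member probe sets are named. Of each gene list up to 4 called genes per direction with the largest differences are named, each gene by its brightest probe set, and the 5 probe sets most like the members. The lists and members were chosen with earlier results of these data known. The scripts were tested on simulated data. Alternatives changed the normalization, offset or floor, and filter, used a block, or left out each array. Contrasts between single tissues and the count of bright probe sets read low were added after the data were seen. Adipose titles carry a or b, read as replicate numbers. The deviations of same-numbered arrays correlated between -0.137 and 0.415, not all above the limit set for a pairing, so the number was not used as one. The number of arrays limits the precision.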

Additional observations from a re-analysis of the deposited data

Results flagged for a closer look

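For Cplx1 the brain hypoxia array departed from the pattern of the other arrays: it lay at -4.46 on the log2 scale from the level that tissue and condition predict (limma, adjusted p = 0.00117). This rests on 1 array, which also stands apart in its scale, and 21 other probe sets were called low on it. The low reading was known when the gene was chosen, so the p-value is no independent support. Among the 4 Glucose adipose arrays, 1 stood far below the others for Snap25, at an intensity of -195. Among the 4 adipose hypoxia arrays, 1 stood far above the others for Stx1a, at an intensity of -93.3. Both are below 0, and chance marks about 1 in 20 groups in this way.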

How the results depend on the processing

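Brain against the other tissues gave 2767 to 4115 calls over the alternatives, against 3692. Without quantile normalization, hypoxia against control gave 1 call in place of 0, the brain hypoxia term 6582 in place of 22 with 5 members in place of 1, and the brain hypoxia array against brain control 40 probe sets lower and 9843 higher in place of 416 and 264. On that scale the departure of Vsnl1 was 0.62 in place of -0.82. Without the filter, the brain hypoxia term gave 8 calls and adipose hypoxia 4 in place of 0. Leaving out 1 array at a time gave 5 to 21 calls for the brain hypoxia term: 5, 9 and 12 without the lung control, fragmentation and hypoxia arrays, 7 and 14 without the brain fragmentation and control arrays, 8 without muscle hypoxia and 11 without heart control. Such fits gave 240 to 459 calls for Glucose against Con, against 565, and 0 for fragmentation, for hypoxia and for adipose hypoxia. For the brighter Vamp2 set, Glucose minus Con ran from -0.04 to 0.28 and changed sign in 4 of 8 such fits. Hypoxia minus control for Cplx1 ran from -1.62 to 0.00. With the replicate number as a block, Glucose against Con gave 466 calls and adipose hypoxia 0, and the Vamp2 differences were 0.12 and 0.18 as before. With the s2 or s4 code as a block, Glucose against Con gave 474. Leaving out 1 array moved the call of Cplx1 between brain and the other tissues where it was the brain hypoxia or heart hypoxia array. With 1 array per tissue and condition, a change within brain cannot be told apart from the array.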

Other observations

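Beyond the genes described above, 3 other named genes were bright on the brain control and fragmentation arrays and low on the brain hypoxia array. Pvalb, a calcium-binding protein of fast-spiking inhibitory neurons, read 2917, 4200.4 and 328 on the control, fragmentation and hypoxia arrays. Gnas, which encodes the stimulatory G protein alpha subunit, read 3583, 8334 and 643, and Mrps18a, a mitochondrial ribosomal protein gene, 3634, 4574 and 824. None of the 3 was called in the additive fit.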
